A study of Mus musculus with 7 samples.

Results

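The 10 genes of MHC class II presentation Cd74, H2-Aa, H2-Ab1, H2-Eb1, H2-DMa, H2-DMb1, H2-DMb2, H2-Oa, H2-Ob and Ciita were followed through mouse mammary glands at 2 ages. They were taken by symbol, and 10 of the 27998 genes of the count matrix matched. Abdominal mammary glands, freed of their lymph nodes, were freshly dissociated from 3 young (3 to 4 months) and 4 aged (13 to 14 months) nulliparous females. The mice had a background mixed from FVB, 129 and C57BL/6J, and each mouse gave 1 single-cell library. The mice carried no transgene or treatment in the labels, and their MHC haplotypes are not given in the sources used here. The 13684 cells fell into 13 cell types named by the authors, and the mouse was the replicate throughout.

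MHC class II molecules display peptides from endosomes to CD4+ T cells. An α and a β chain (H2-Aa with H2-Ab1 in the mouse I-A molecule, H2-Eb1 as the β chain of I-E) assemble on the invariant chain, Cd74, which blocks the peptide groove and escorts the molecule to endosomes. There H2-DM, made of H2-DMa with H2-DMb1 or H2-DMb2, exchanges the remnant of Cd74 for peptide, and H2-DO, made of H2-Oa with H2-Ob, restrains H2-DM. Ciita is the coactivator that switches these genes on, constitutively in dendritic cells, B cells and some macrophages, and under interferon gamma in other cells such as endothelium. In the mammary gland the best known class II cells are ductal macrophages and dendritic cells.

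Of the 10 genes, 8 lie on chromosome 17 between positions 34092340 and 34316674 (GRCm38, GENCODE vM21), in the order H2-Oa, H2-DMa, H2-DMb2, H2-DMb1, H2-Ob, H2-Ab1, H2-Aa and H2-Eb1, with H2-Aa on the minus strand. Cd74 and Ciita lie on other chromosomes. The class II promoter carries an X box, bound by the RFX complex, ahead of a Y box, bound by NF-Y, and Ciita acts through both. RefSeq promoters (250 bases before to 50 after the start, GRCm38.p6) were at hand for 7 of the genes and were searched on both strands for the X core AGNAAC and the Y box ATTGG. The X core followed by the Y box on the same strand, starting 10 to 40 bases later, was found in 4 genes (H2-Eb1, H2-DMb1, H2-Ob and H2-Oa) and in 1.64% of 32851 promoters, whereas AGNAAC alone was in 48.1% and ATTGG alone in 37.4%. The 4 stretches are shown 5′ to 3′ on the gene's strand to let the shared element be compared among genes that behaved differently in the data, with the X core and the Y box in capitals.
H2-Eb1, chr17:34305765-34305820, plus strand: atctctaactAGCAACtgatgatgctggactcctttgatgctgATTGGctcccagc
H2-DMb1, chr17:34153086-34153142, plus strand: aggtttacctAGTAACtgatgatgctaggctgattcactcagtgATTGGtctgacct
H2-Ob, chr17:34238807-34238860, plus strand: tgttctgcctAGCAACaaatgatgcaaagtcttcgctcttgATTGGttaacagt
H2-Oa, chr17:34092292-34092348, plus strand: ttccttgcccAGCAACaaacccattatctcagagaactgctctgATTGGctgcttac
The X core began 77 to 95 bases before the start in these genes, and 31 to 34 bases separated the starts of both boxes. For H2-DMa the stretches searched began at 34122582 and 34125268, and for H2-DMb2 at 34144999. GENCODE places the starts of these genes upstream, at 34119541 and 34143307, so the search did not cover them. For H2-Aa the stretch covered the start and held ATTGG but not AGNAAC. Only the exact patterns were searched, so other forms of the boxes would be missed.

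Libraries held 6652599 to 16999625 unique molecular identifiers (UMIs, 1 per captured mRNA molecule) in 1264 to 2865 cells, and 19 to 38 barcodes per library also occurred in another library. Cell type labels were set beside markers. Those of the macrophages and dendritic cells are the genes by which the paper named them in these counts. Their values therefore describe the labels and are no independent check. Mb macrophages held 628 to 2583 CPM (UMIs of a gene per 1000000 UMIs of the sum) of Mmp12, Mmp13 and Spic, against at most 13.6 in Ma macrophages, and Ma macrophages 2162 to 3057 of Mrc1, Cd209f and Cd163, against at most 38.7 in Mb. Dendritic cells held 783 to 1241 CPM of Napsa, Traf1, Cd209a and Flt3. Aged mice gave few immune cells, with 3 to 9 Mb macrophages per mouse, 14, 5, 1 and 1 dendritic cells and 1 Ma macrophage in all. Pericytes also held 960 to 2572 CPM of the endothelial list (Pecam1, Cdh5, Eng, Kdr, Emcn, Sox17 and Sele), close to the 2547 to 3265 of vascular endothelial cells, so their label is not clear of endothelial RNA. No library held mice of both ages, so an effect of age and one of the library preparation cannot be told apart, nor, in a sum over cells, can fewer expressing cells and less RNA per cell.

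The genes were far from equal in abundance. Cd74 gave 134064 UMIs, H2-Aa 35331, H2-Ab1 34625 and H2-Eb1 20517, while H2-DMb1 gave 3854, H2-DMa 2950, H2-DMb2 763, H2-Oa 445, H2-Ob 121 and Ciita 32. Mb macrophages, 146 cells, held 45.0% of all these UMIs, dendritic cells 34.0%, vascular endothelial cells 11.6% and Ma macrophages 4.41%. In Mb macrophages the 10 genes made up 12.4% of all UMIs of the cell type.

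The level of Cd74 was ordered by cell type over the mice of both ages, with Ma macrophages from young mice only. Mb macrophages held 67271 ± 15127 CPM (SD, n = 7), dendritic cells 33020 ± 7113 (SD, n = 5), Ma macrophages 10173 ± 2122 (SD, n = 3) and vascular endothelial cells 2030 ± 3085 (SD, n = 7). The ranges of Mb macrophages and dendritic cells did not overlap, nor did those of dendritic cells and Ma macrophages. Ma macrophages and vascular endothelium did overlap, because the endothelium of Aged A, at 8697 CPM, exceeded the lowest Ma value, 8609 CPM in Young A. Below the endothelium, every neighbouring pair of cell types overlapped, with NK cells at 1127 ± 2326 (SD, n = 5), pericytes at 396 ± 501 (SD, n = 7) and T and B cells at 348 ± 640 (SD, n = 7). Myoepithelial cells held 116 ± 81.1 (SD, n = 7), fibroblasts 78.9 ± 113 (SD, n = 7), alveolar (AV) cells 59.7 ± 49.2 (SD, n = 7) and hormone-sensing (HS) cells 40.0 ± 26.4 (SD, n = 7). In young mice alone, vascular endothelium held 416 ± 203 CPM (SD, n = 3), below the NK cell mean of 1803 ± 3018 (SD, n = 3), which rests on Young A, so the place of endothelium above NK cells comes from the aged mice. Levels are UMIs summed over the cells of a type in a mouse with at least 3 such cells, without a correction for free RNA.

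**Figure D1:**
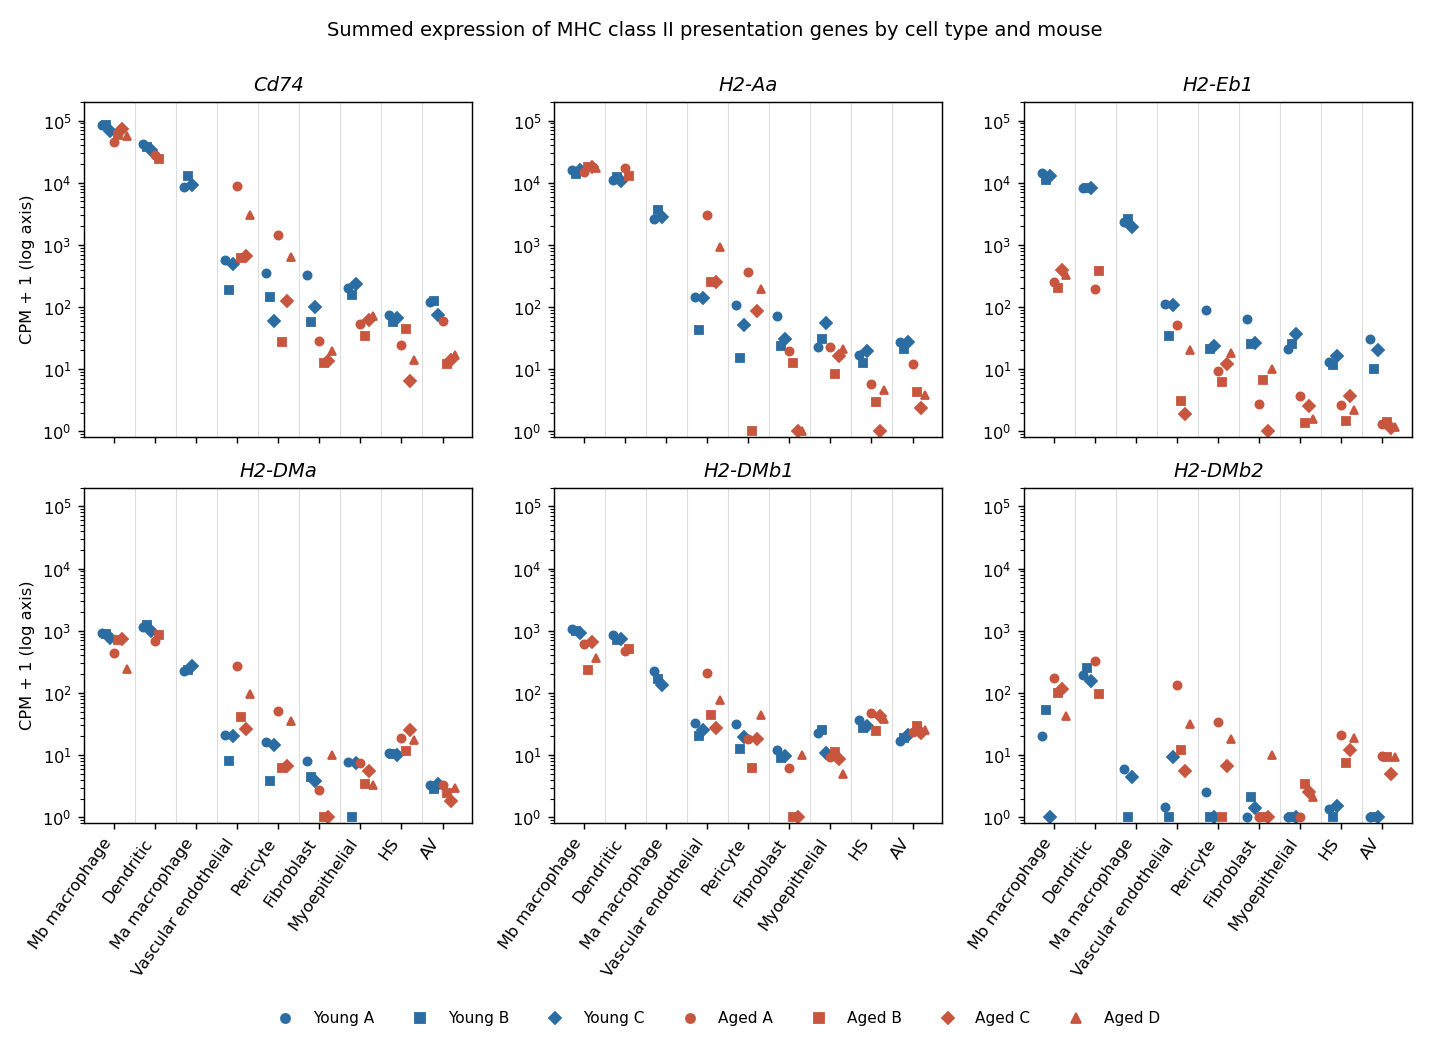
CPM plus 1 (log axis) of 6 of the genes in 9 cell types, 1 point per mouse with at least 3 cells of the type, young mice in blue and aged mice in red. H2-Eb1 splits by age in macrophages and dendritic cells, Cd74 and H2-Aa rise above the young points in aged vascular endothelium, and H2-DMb2 is near 0 in young HS and AV cells and above 0 in all aged ones.

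The first question of the design was how class II genes differ with age within a cell type, and vascular endothelial cells showed the widest rise. Of the 7 genes abundant enough to be tested there, 6 rose in aged mice (the invariant chain Cd74, both I-A chains H2-Aa and H2-Ab1, and the exchange genes H2-DMa, H2-DMb1 and H2-DMb2), where 14.7% of the 7864 genes tested in these cells were called higher and 12.0% lower (edgeR quasi-likelihood test on sums per mouse, Benjamini-Hochberg adjusted p under 0.05 and at least 1.5-fold). The median log2 change was 3.18 over the 7 genes and -0.05 over all genes tested. H2-DMb2 is in the 6 and in this median although it passed the count filter mostly through the aged mice, where it is high. Its direction was therefore not free. H2-Eb1 was not called, with a negative estimate, and H2-Oa, H2-Ob and Ciita were too rare to test.

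Cd74 stood at 576, 188 and 484 CPM in the endothelium of Young A, B and C and at 8697, 617, 669 and 2982 in Aged A, B, C and D. The groups did not overlap, but Aged B and C lay just above the highest young mouse and Aged A and D far above it. The log2 difference was 3.35 ± 0.82 (SE, adjusted p = 0.00763 by edgeR). H2-Aa, the I-A α chain, measured 144, 42.5 and 139 CPM in young and 3052, 253.5, 253 and 926 in aged endothelium (log2 difference 3.77 ± 0.83, SE, adjusted p = 0.00397 by edgeR). H2-Ab1, its β partner, measured 149, 43.0 and 154 CPM in young and 1665, 209, 177 and 540.2 in aged mice (2.89 ± 0.72, adjusted p = 0.00834 by edgeR). Both chains, like Cd74, were highest in Aged A and then Aged D, but were higher in Aged B than in Aged C, unlike Cd74.

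The peptide-exchange genes moved the same way at lower levels. H2-DMa measured 20.4, 7.08 and 19.2 CPM in young and 271, 39.8, 25.0 and 96.5 in aged endothelium (log2 difference 3.18 ± 0.73, SE, adjusted p = 0.00518 by edgeR). H2-DMb1 measured 31.6, 19.6 and 24.7 CPM against 207, 43.3, 26.7 and 75.5, so Aged C lay within the young range (2.12 ± 0.56, adjusted p = 0.012). H2-DMb2 gave 1, 0 and 6 UMIs in young and 125, 16, 5 and 49 in aged endothelium, and its log2 difference of 5.02 ± 1.26 (adjusted p = 0.00908) rests on those few young UMIs.

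H2-Eb1 went against its neighbours. It measured 109, 33.2 and 107 CPM in young and 50.9, 2.10, 0.891 and 19.0 in aged endothelium, and its log2 difference of -1.89 ± 0.69 (SE) did not pass the test (adjusted p = 0.0555 by edgeR). The groups overlapped through Young B, which lay below Aged A. Without Aged A the difference was -2.95 and passed (adjusted p = 0.00340).

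The rarest members gave little. Ciita gave 0, 3 and 0 UMIs in young and 4, 0, 0 and 2 in aged endothelium, H2-Oa 1, 2 and 0 against 0, 0, 0 and 1, and H2-Ob 0, 1 and 0 against 5, 0, 0 and 0. At this depth a difference in Ciita was not detectable.

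**Figure D2:**
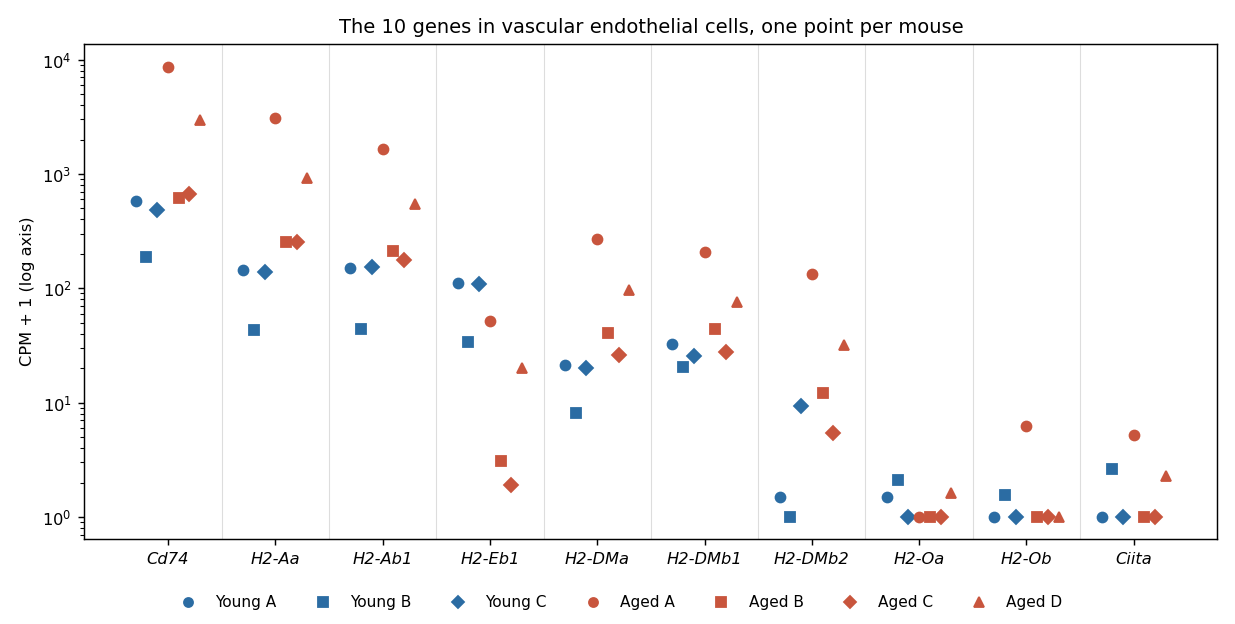
CPM plus 1 (log axis) of each of the 10 genes in vascular endothelial cells, 1 point per mouse, young in blue and aged in red. Aged A and Aged D carry the highest values of 6 genes, and H2-Eb1 shows its highest values in Young A and Young C.

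How far single mice carried the endothelial rise was examined by leaving mice out. Without Aged A the same 6 genes were called higher, with smaller log2 differences of 2.19 for Cd74 and 2.57 for H2-Aa, and leaving out Young A or Young B lost the call of H2-DMb2 or H2-DMb1, respectively, with 5 called higher. H2-Eb1 was called lower without Aged A and also without Young B. Without both Aged A and Aged D only H2-Aa (log2 difference 1.59, adjusted p = 0.0109 by edgeR) and H2-DMa (1.45, adjusted p = 0.0220) remained called higher and H2-Eb1 was called lower, and Cd74 dropped to 0.98 (adjusted p = 0.0619).

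Levels of immune RNA were set beside these values, since droplet libraries carry free RNA and macrophages are rich in class II. The myeloid list (13 genes, among them Ptprc, Tyrobp, Lyz2 and C1qa) summed to 101, 60.4 and 132 CPM in the endothelium of Young A, B and C and to 43.4, 12.6, 8.91 and 5.71 in Aged A, B, C and D. It was lower in every aged mouse than in every young mouse, but within the aged group it was highest in Aged A, which also had the most Cd74, and within the young group lowest in Young B, which had the least. Lyz2 gave 42, 15 and 8 UMIs in young and 2, 0, 0 and 0 in aged endothelium. The T cell list (Cd3d, Cd3e and Cd3g) gave at most 9 UMIs in any mouse. The B cell list summed to 75.3 to 92.1 CPM in young and 3.57 to 51.0 in aged endothelium, mostly from Ly6d, which HS cells also express. Of the dendritic list, Flt3 was at 0 in every mouse and Cd209a at 0 in aged mice, while Traf1 measured 90.1 to 108 CPM in aged endothelium and accounted for the list's rise from 12.0 to 33.0 CPM in young mice to 90.1 to 108 in aged.

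The ratio of myeloid to class II RNA was low in aged endothelium. For each UMI of Cd74 there were 0.258 to 0.354 myeloid UMIs (12 genes, without Ctss) in young and 0.209 to 0.777 in aged Mb macrophages, and 0.193 to 0.334 and 0.205 to 0.208 in dendritic cells. Young endothelium, at 0.167 to 0.313, overlapped the values of these cells. Aged endothelium held 0.00439, 0.0204, 0.0133 and 0.00149 in Aged A, B, C and D, below every macrophage and dendritic sum. In myoepithelial, HS and AV cells the ratio was 0.180 to 1.36 at either age, and in aged pericytes, whose Cd74 was 1423 CPM in Aged A and 643 in Aged D, it was 0.0355 to 0.0909. The 1 aged sum of lymphatic endothelium with enough Cd74 UMIs was at 0. After removal of every endothelial cell with a UMI of the myeloid, B or T cell lists, 132 to 239 cells remained per aged mouse and 88 to 255 per young mouse. This removal also covered any cell whose only such UMI was Ly6d, most of the B cell list and also expressed by HS cells. Cd74 then measured 423, 122 and 299.9 CPM in young and 8780, 627, 682 and 3027 in aged mice, and the same 6 genes were called higher.

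**Figure D3:**
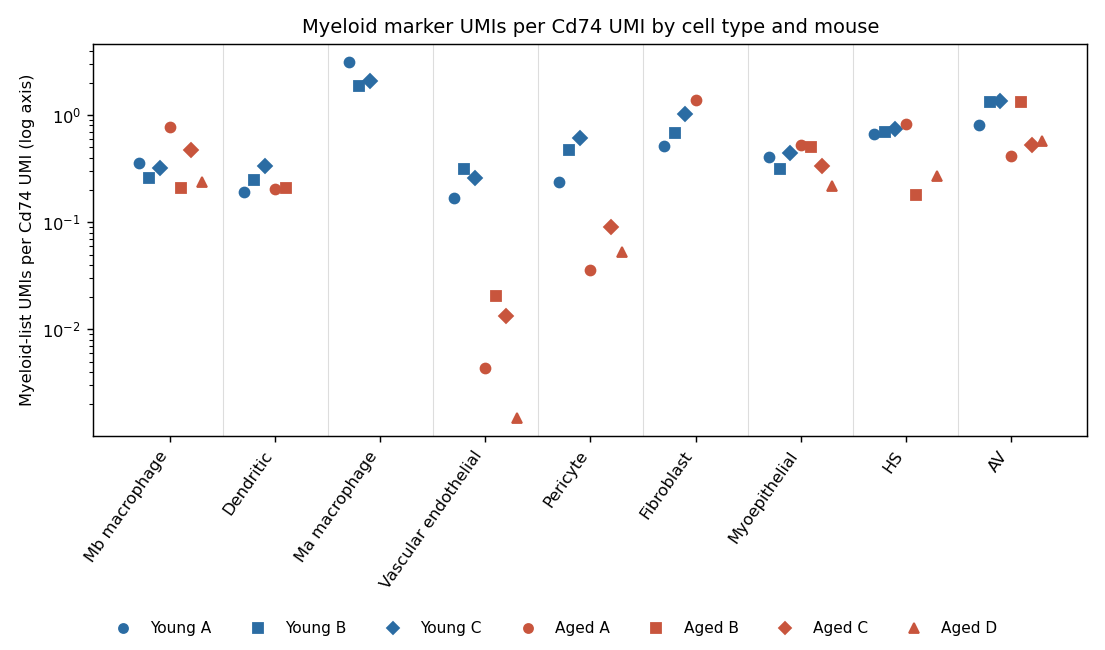
UMIs of 12 myeloid genes per UMI of Cd74 (log axis) in 9 cell types, 1 point per mouse with at least 10 Cd74 UMIs, young in blue and aged in red. The 4 aged vascular endothelial points lie at 0.00149 to 0.0204, under the macrophage and dendritic points.

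The rise was spread over the endothelial cells of aged mice. Counting Cd74, H2-Aa and H2-Ab1 together, the median cell held 1, 0 and 0 UMIs in Young A, B and C and 70, 2, 3 and 21 in Aged A, B, C and D. Cells with at least 10 such UMIs made up 9.29%, 2.65% and 7.59% in young mice and 95.3% (95% Wilson interval 91.0 to 97.6), 18.2%, 26.8% and 77.8% in aged mice. In young mice class II RNA sat in few cells, with 57.1% to 65.0% of these UMIs in the top 5% of cells, whereas in aged mice the top 5% held 12.9% to 31.2%, and the groups did not overlap. The few young cells with at least 10 UMIs (38, 10 and 11 cells) held 82.2 to 115 CPM of Lyz2, against 5.62 to 9.17 in young cells with none, and 309.6 to 844 CPM of the immune lists. Aged cells with at least 10 UMIs held 0 to 2.20 CPM of Lyz2 and 12.2 to 62.7 of the immune lists. The endothelial list stood at 2556 to 3272 CPM in these aged cells and at 2593 to 3021.5 in the young ones with at least 10 UMIs. Pecam1, an endothelial junction protein, measured 636 to 816 CPM in these aged cells and 735 to 906 in these young ones. Cdh5 measured 335 to 413 and 339 to 557.

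**Figure D4:**
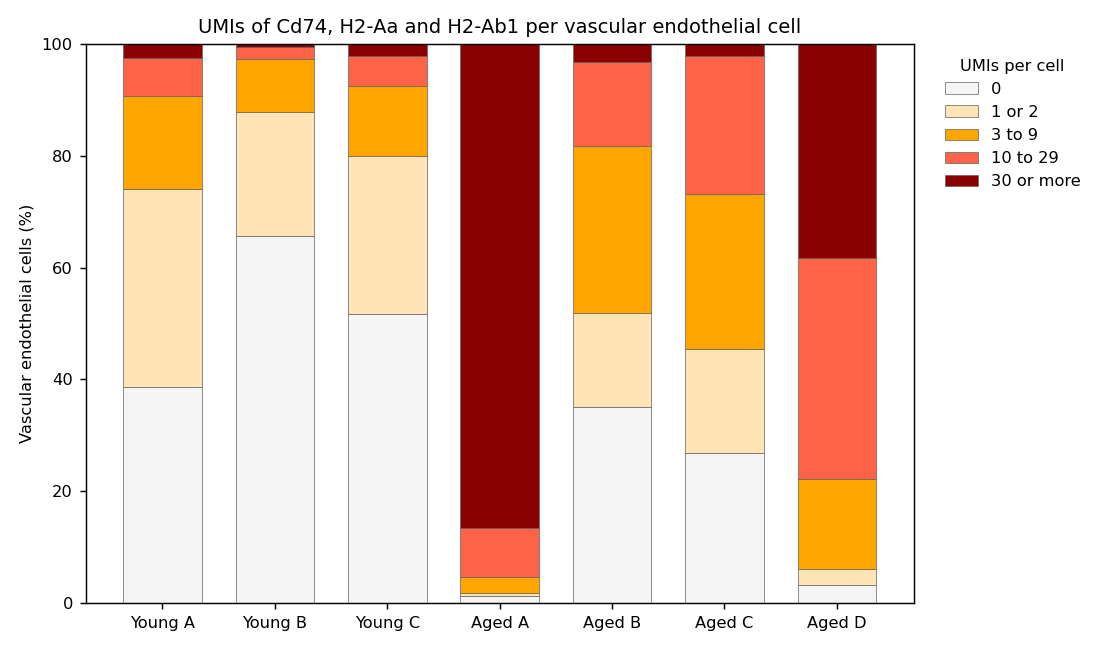
Share of vascular endothelial cells (%) with 0, 1 or 2, 3 to 9, 10 to 29 and 30 or more UMIs of Cd74, H2-Aa and H2-Ab1 together, 1 bar per mouse, without thinning. Cells with 30 or more make up 86.5% of Aged A and 38.3% of Aged D and at most 3.16% of every other mouse.

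At equal depth, with each cell thinned to 2000 UMIs, a Cd74 UMI was found in 23.2% ± 8.02 of young endothelial cells (SD, n = 3, 17.2% to 32.3%) and 68.6% ± 29.3 of aged endothelial cells (SD, n = 4, 41.4% to 97.7%). The groups did not overlap, but the spread among aged mice was wide and the exact two-sided permutation test over the 35 divisions of the mice gave p = 0.0857, where the smallest it allows is 0.0286. Without thinning the shares were 36.1% and 76.4%. AV cells, taken as cells without class II presentation, gave 9.85% ± 4.60 (SD, n = 3) in the young and 3.20% ± 1.92 (SD, n = 4) in the aged group, with median depths of 5424.5 and 6877.5 UMIs before thinning against 4614 and 5239 in endothelium. Other cell types reached further, with 16.7% (10.0% to 27.3%) of young myoepithelial cells and 20.1% (10.3% to 33.1%) of young pericytes, both overlapping young endothelium, but at most 33.3% in any aged sum of them, below every aged endothelium.

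Within the endothelium, Cd74 was higher in cells with a UMI of a venous list. Cells with a UMI of the venous list (Ackr1, Selp, Nr2f2, Vwf and Vcam1) held more Cd74 than the other endothelial cells in 7 of 7 mice, by 2.87 ± 1.18 on the log2(CPM + 1) scale (SD, n = 7, exact two-sided sign permutation p = 0.0156, the smallest it can give). Cells with more UMIs are more likely to show a venous UMI, and with each cell thinned to 2000 UMIs the difference was 2.05 ± 0.91 (SD, n = 7, higher in 7 of 7 mice, exact p = 0.0156). In young mice the levels were 908, 315 and 814 CPM with a venous UMI against 102, 53.7 and 93.0 without. In aged mice they were 9017, 663, 728 and 3136 against 4338, 101, 21.4 and 545, over 13 to 29 cells per mouse without a venous UMI. Cells with a UMI of the arterial list (Gja4, Gja5, Hey1, Sox17 and Fbln5) held less Cd74 than the others in 7 of 7 mice, by -0.60 ± 0.72 (SD, n = 7, exact p = 0.0156). The size was uneven, at -1.48, -0.14 and -1.70 in Young A, B and C and -0.003, -0.12, -0.74 and -0.03 in Aged A, B, C and D. The capillary list (Rgcc, Car4, Cd36, Gpihbp1 and Aqp7) could be split in 4 mice only and gave -0.02 ± 0.36 (SD, n = 4, exact p = 0.875, smallest possible 0.125), and -0.45 in 5 mice after thinning (exact p = 0.375). The venous list itself measured 1209 to 1394 CPM in young and 5407 to 6432 in aged endothelium, and the capillary list 7294 to 9568 and 1108 to 1501, and the part of these shifts in the class II values was not tested. The venous list was not particular to endothelium, at 367 to 1081.5 CPM in young and 634 to 1200 in aged Mb macrophages. In aged myoepithelial cells it measured 569 to 1529 CPM. The part of other cells' RNA in the Cd74 difference by venous RNA was not tested.

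Whether the endothelial change differed from that of other cells was tested directly as an interaction of cell type and age. Relative to fibroblasts, 5 of 7 genes changed more in endothelium (3.71% of all genes did), Cd74 by 6.45 ± 0.45 and H2-Aa by 5.92 ± 0.52 on the log2 scale (SE, adjusted p = 2.95e-08 and 7.05e-07 by edgeR). Relative to myoepithelial cells 6 of 7 did (9.83%), relative to HS cells 5 of 7 (7.44%), relative to AV cells 5 of 8 (7.06%) and relative to pericytes 5 of 7 (6.65%). Cd74, H2-Aa, H2-Ab1 and H2-DMa were among them in all 5 contrasts, and no gene of the set changed less in endothelium at the threshold. H2-DMb2 was not called in any of the contrasts. Its estimates were 0.27 against myoepithelial, -1.43 against HS and -4.53 against AV cells, 3.22 against fibroblasts and 0.95 against pericytes. The other cells did not all move the same way, since the Cd74 estimate was negative in myoepithelial, HS and AV cells and fibroblasts but 1.58 in pericytes (not called), and those of H2-DMa and H2-DMb1 in HS cells were 0.92 and 0.34 (not called). H2-Eb1 was among the calls against myoepithelial and AV cells because its estimate was less negative in endothelium. The contrast with pericytes lost all its calls with DESeq2 or without Young A, and those with HS cells and fibroblasts lost H2-DMa and H2-DMb1 without Aged A. The HS contrast also lost both with DESeq2. It lost H2-DMa without ribosomal protein and mitochondrial genes and without Aged D, Young B or Young C. The pericyte contrast lost H2-DMa without the filter on low counts and without Aged A, Aged B, Aged C or Young C. It also lost H2-DMb1 without Aged A or Aged B. H2-DMa lost its call against AV cells without any 1 young mouse and, with H2-DMb1, against myoepithelial cells without Young A, and H2-Eb1 lost its call against myoepithelial cells with DESeq2, without Aged A and without Aged D.

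In myoepithelial, HS and AV cells and fibroblasts the classical genes were low and fell in part with age. Myoepithelial cells had 4 of 5 genes lower (14.8% of genes tested there), Cd74, H2-Ab1, H2-Eb1 and H2-DMb1, with Cd74 at 200.2, 157 and 237 CPM in young and 52.4, 33.8, 60.0 and 70.2 in aged mice (log2 difference -1.80 ± 0.26, SE, adjusted p = 0.000127 by edgeR). HS cells had 3 of 7 lower (2.33%), H2-Aa, H2-Ab1 and H2-Eb1. AV cells had 2 of 8 lower (3.26%), H2-Aa and H2-Eb1, and fibroblasts 2 of 4 (1.11%), Cd74 and H2-Eb1. Fibroblast Cd74 measured 326, 56.5 and 100.1 CPM in young and 27.6, 11.5, 12.7 and 18.3 in aged mice, on 1 to 16 UMIs per aged mouse. Pericytes had 0 of 3 called by edgeR (11.8% in either direction, with 0 of the 3 at an unadjusted p under 0.05, and 0 with DESeq2), and T and B cells had no member that passed the filter. Several of these calls rested on single mice. Leaving out any 1 aged mouse lost both fibroblast calls, leaving out any 1 young mouse lost that of H2-Eb1, and the AV call of H2-Aa was lost without any 1 mouse other than Aged A. In myoepithelial cells H2-DMb1 remained called only without Young C, and H2-Ab1 was lost without Aged B, Young B or Young C, while HS cells lost H2-Aa without Young C. The myeloid list was lower in the same cells, at 54.1 to 107 CPM in young and 16.0 to 29.4 in aged myoepithelial cells, 42.4 to 51.0 and 3.55 to 19.5 in HS cells, 106 to 176 and 7.50 to 27.1 in AV cells and 43.8 to 183 and 5.75 to 76.0 in fibroblasts, and its part in these falls was not tested.

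H2-Eb1 set itself apart in the professional class II cells, where Cd74, H2-Aa and H2-Ab1 were not called with age. In Mb macrophages H2-Eb1 measured 14246, 11102 and 12709 CPM in young mice and 249, 200.3, 387 and 328 in aged mice. Its log2 difference was -5.18 ± 0.30 (SE, adjusted p = 1.5e-05 by edgeR), a 36.3-fold lower level, and it was 1 of the 2 genes called lower there (0.233% of 859). H2-Aa in the same cells measured 16192, 13890 and 15730 CPM in young and 14725, 17730, 17696 and 17546 in aged mice, with overlapping groups (0.45 ± 0.22, SE, adjusted p = 0.284 by edgeR). Cd74 was 84921, 86221 and 66932 CPM against 45066, 58967, 72256 and 56533 (-0.14 ± 0.27, adjusted p = 0.839).

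Dendritic cells repeated this on the 2 aged mice with enough cells. H2-Eb1 measured 8256, 8207 and 8231 CPM in Young A, B and C and 193 and 375 in Aged A and B (log2 difference -4.95 ± 0.23, SE, adjusted p = 9.18e-06 by edgeR), the 1 call lower among 8 members tested (1.32% of genes). H2-Aa (11058, 12283 and 10819 CPM against 17011 and 12886) and H2-Ab1 (12105, 11468 and 11221 against 10415 and 10134) were not called. Cd74 was not called either, but it was called lower without Aged A or without Young C. H2-Eb1 was also called lower in myoepithelial cells (-4.44), AV cells (-5.88), HS cells (-3.19) and fibroblasts (-3.39), so it was called lower in 6 of the 7 cell types in which it was tested for age, the exception being endothelium. There its estimate was also negative (-1.89, adjusted p = 0.0555 by edgeR). It was called lower in endothelium without the filter on low counts, with the replicate block and at equal totals.

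The ratio of the β chain of I-E to the α chain of I-A was high in young and low in aged mice wherever H2-Aa UMIs sufficed. Over the 28 sums of 11 cell types in young mice with at least 10 H2-Aa UMIs, there were 0.455 to 1.11 H2-Eb1 UMIs per H2-Aa UMI (median 0.777), and over the 24 sums of 9 types in aged mice 0 to 0.294 (median 0.0288). Young vascular endothelium gave 0.758, 0.782 and 0.772 and aged endothelium 0.0167, 0.00826, 0.00352 and 0.0206, beside 0.799 to 0.880 and 0.0113 to 0.0219 in Mb macrophages. Aged sums differed between types, with medians of 0.0125 in vascular endothelium, 0.0778 in AV cells and 0.0870 in pericytes. Over these sums all 4 aged mice were low and all 3 young mice high, with no value between. No aged HS sum and only 1 aged fibroblast sum had enough H2-Aa UMIs. Mean H2-Eb1 and H2-Aa were 1.50 and 2.59 CPM in aged HS cells and 4.15 and 7.62 in aged fibroblasts. The split was therefore not measured in HS cells and rests on 1 aged mouse in fibroblasts. H2-Ab1 per H2-Aa overlapped between ages over all types, at 0.455 to 2.17 in young and 0.294 to 2.81 in aged sums, but not within vascular endothelium (1.01 to 1.11 against 0.546 to 0.824) or dendritic cells (0.934 to 1.09 against 0.612 to 0.786). The sums of a mouse share a library and its free RNA, so they are not independent values. Age and the MHC haplotype of each mouse cannot be told apart in this split.

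**Figure D5:**
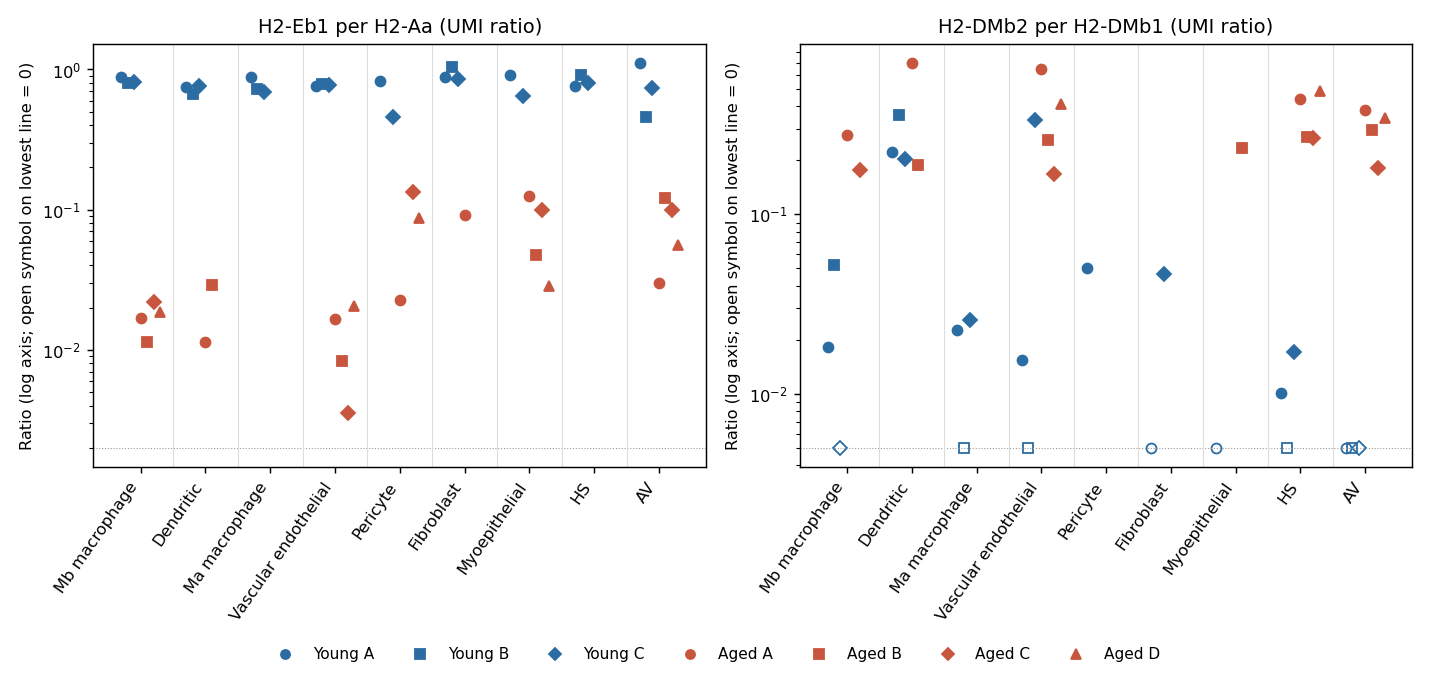
UMI ratios (log axis) of H2-Eb1 to H2-Aa (left) and H2-DMb2 to H2-DMb1 (right) in 9 cell types, 1 point per mouse with at least 10 UMIs of the second gene, young in blue and aged in red, with open symbols on the dotted line for a ratio of 0. H2-Eb1 per H2-Aa lies at 0.455 or above in every young sum and at most 0.133 in every aged sum shown, and H2-DMb2 per H2-DMb1 is at or near 0 in young macrophages and luminal cells but not in young dendritic cells.

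H2-DMb2 showed the opposite split in luminal cells. AV cells gave 0, 0 and 0 UMIs in young and 53, 85, 29 and 52 in aged mice, and over each group the aged level of 7.39 CPM was at least 11.6-fold higher than the young limit of 0.637 CPM that 3 UMIs over the group would give (called, adjusted p = 0.00524 by edgeR). HS cells gave 1, 0 and 3 UMIs against 25, 13, 8 and 15 (log2 difference 5.07 ± 0.60, SE, adjusted p = 0.00182 by edgeR). H2-DMb2 was the 1 member called higher in either type, where 2.9% of genes in AV and 3.93% in HS cells were. In both types it passed the count filter through the aged mice alone, so its direction there was not free. In dendritic cells it measured 191, 254 and 153 CPM in young and 321.5 and 93.8 in aged mice and was not called (0.34 ± 0.49, adjusted p = 0.724). The split was not confined to luminal cells. Per H2-DMb1 UMI, Mb macrophages held 0 to 0.0519 H2-DMb2 UMIs in 3 young and 0.176 to 0.277 in 2 aged mice. Myoepithelial cells held 0 in 1 young and 0.233 in 1 aged mouse. Ages overlapped in endothelium (0 to 0.333 against 0.167 to 0.641) and dendritic cells (0.204 to 0.359 against 0.188 to 0.694). The longest transcripts of H2-DMb1 and H2-DMb2 were 96.0% identical over 1045 aligned bases and shared 361 stretches of 50 bases, but 0 within their last 500 bases, where 3′ libraries read, so counts of the pair remain uncertain for reads further inside. No other pair among the 45 shared a stretch of that length.

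H2-DMb1 was also found in luminal cells. It measured 23.4 to 46.3 CPM in HS and 15.6 to 28.7 in AV cells, above the 0 to 11.2 of fibroblasts but overlapping pericytes (5.30 to 42.9), and AV cells also overlapped myoepithelial cells (3.99 to 24.6), and it was not called with age in either (adjusted p = 0.354 and 0.0641 by edgeR). There were 0.446 to 2.82 H2-DMb1 UMIs per Cd74 UMI in HS and 0.129 to 2.55 in AV cells, against 0.00396 to 0.0259 in macrophages and dendritic cells. H2-DMa measured 8.99 to 24.5 CPM in HS cells and 0.818 to 2.48 in AV cells, where its mean of 1.88 CPM was the lowest of all 13 types. H2-Oa gave 1, 3 and 3 UMIs in young and 54, 32, 51 and 63 in aged AV cells (log2 difference 2.47 ± 0.72, SE, adjusted p = 0.0677 by edgeR, not called, but 0.0228 with DESeq2), while H2-Ob, its partner, gave 1 UMI in all AV cells.

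The next question was how class II differs between the macrophage types that the study separated, Ma (stromal-like) and Mb (ductal-like), compared within the 3 young mice. All 7 genes tested were higher in Mb (11.2% of genes were). The authors drew both types from these same counts, and the paper already lists these genes as higher in Mb. The p-values here are therefore descriptive and are no independent test. Cd74 measured 8609, 12588 and 9322 CPM in Ma and 84921, 86221 and 66932 in Mb macrophages of Young A, B and C, a log2 difference of 3.05 ± 0.20 (SE, adjusted p = 1.17e-05 by edgeR, with the mouse as block). H2-Aa, H2-Ab1 and H2-Eb1 differed by 2.42, 2.81 and 2.54, H2-DMb1 by 2.60 and H2-DMa by 1.89. H2-Oa gave 0 UMIs in Ma and 65 in Mb macrophages, a level at least 18.3-fold higher than the limit of 3 UMIs over the Ma cells, and lost its call without Young A. It passed the count filter through Mb alone.

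Dendritic cells and Mb macrophages shared the classical genes but not in equal amounts. Of 7 genes tested over both ages with the mouse as block, 2 passed at 2-fold (23.0% of genes did). These types too were drawn from the same counts. Cd74 was lower in dendritic cells, by -1.34 ± 0.17 on the log2 scale (SE, adjusted p = 0.00058 by edgeR), and H2-DMb2 was higher, by 1.99 ± 0.60 (adjusted p = 0.0325), a call lost without any 1 young mouse. H2-Aa, H2-Ab1 and H2-Eb1 were -0.61, -0.68 and -0.68, past the adjusted p but under 2-fold. H2-Ob measured 80.6, 109 and 78.3 CPM in young dendritic cells and 0, 26.1 and 32.4 in young Mb macrophages, and Ciita gave 8 UMIs in dendritic cells and 9 in Mb macrophages over all mice with at least 3 cells.

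Of 36 genes around the pathway, 22 could be tested in endothelium, of which 6 were higher and 5 lower in aged mice and 11 not called, where 14.7% of all genes tested in these cells were called higher and 12.0% lower. Of the 6, 4 were endosomal processing genes. Lgmn, an asparaginyl protease of lysosomes, rose from 58.6 to 273 CPM on average (log2 difference 2.58 ± 0.20, SE, adjusted p = 1.77e-06 by edgeR), and Ctsd, Ctsb and Ifi30, a thiol reductase, rose by 0.99, 0.86 and 1.32. Sppl2a, which cleaves the last Cd74 fragment, was lower (-0.82), and Ctss, the cathepsin that trims Cd74 in professional cells, was too rare to test. Among promoter factors Nfyb was higher (1.72 ± 0.19, adjusted p = 2.54e-05) and Rfxap lower (-1.51 ± 0.20, adjusted p = 0.000101), and Rfx5 was too rare, at 3.77 CPM in young and 5.10 in aged mice. Among interferon gamma signalling genes, the receptor chain Ifngr2 was higher (0.68), the feedback inhibitor Socs1 was lower (-0.95), and Ifngr1 (0.05, adjusted p = 0.861) and Irf1 (-0.48, adjusted p = 0.0662) were not called. March8, a ligase for surface class II, was lower (-1.87). Of the costimulatory genes Cd80, Cd86, Cd40 and Icosl were too rare to test and Cd274 was not called.

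Over the 80 sums with at least 3 cells, each of 1 cell type in 1 mouse, the 5 genes outside the set whose log2(CPM + 1) was most like the summed log2(CPM + 1) of Cd74, H2-Aa, H2-Ab1 and H2-Eb1 were Cybb, Cd83, Lyz2, Slc15a3 and Mpeg1, with Pearson r of 0.850 to 0.860 among 7421 genes. These values describe sums that share libraries. Their mean level was 401 to 7008 CPM in Mb macrophages and 0.266 to 11.6 CPM in vascular endothelium.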

How the data were processed

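The authors made 10x Chromium 3′ libraries, 1 per mouse, mapped reads to mm10 with Cell Ranger 2.0 (submitters' processing notes), filtered cells and deposited unnormalized UMI counts for each gene in every cell, with its cell type. From these counts, sums per mouse and cell type (at least 3 cells) were fitted with edgeR 4.0.16 (filterByExpr, TMM, quasi-likelihood test), Benjamini-Hochberg adjusted over all genes, in 16 comparisons, and fits were checked on simulated data. Calls needed an adjusted p under 0.05 and 1.5-fold (age), 2-fold (cell types) or any fold (interactions). CPM are UMIs per 1000000 UMIs of the sum. Nothing says which mice shared a litter or day, and the letters A to D name different animals. Scrublet (scanpy 1.11.5, expected rate 0.06) called 80 of 13684 cells doublets (0.585%), which were kept. The 10 members, the pathway and marker lists and the tests were chosen with earlier results of these data known. Named genes are all members, the called pathway genes with the largest change (up to 8), Rfx5, Irf1 and Ifngr1, except for an item not reported here, and Ctsb, Sppl2a, Ifngr2 and the pathway genes named as too rare or not called were added after their values were seen. Intervals and limits cover counting error only. Cells were thinned to 2000 UMIs for shares. Python 3.11.15, R 4.3.3, DESeq2 1.42.0, scipy 1.17.1 and biopython 1.88 were used. Alternatives comprised DESeq2, RLE factors, other filters, doublets or immune-positive cells removed, equal totals, a replicate block and each mouse left out, and 1 was added after seeing the data, without Aged A and Aged D.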

Additional observations from a re-analysis of the deposited data

Results flagged for a closer look

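Among the 4 aged mice, 3 of 40 combinations of gene and cell type held a mouse far from the other 3, where chance gives about 1 in 20. H2-DMb2 in AV cells was lowest in Aged C, at 3.95 CPM. Cd74 in AV cells was highest in Aged A, at 59.2 CPM. H2-Aa in Mb macrophages was lowest in Aged A, at 14725 CPM. Their causes were not tested.

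The age change of vascular endothelium differed from that of other cell types by the interaction test of edgeR, and the values below are endothelial minus other log2 changes. Against myoepithelial cells the difference was 4.35 for Cd74, 4.06 for H2-Aa, 3.21 for H2-Ab1, 2.21 for H2-Eb1, 3.30 for H2-DMa and 2.99 for H2-DMb1. Against HS cells it was 4.27 for Cd74, 6.15 for H2-Aa, 4.87 for H2-Ab1, 2.06 for H2-DMa and 1.68 for H2-DMb1. Against AV cells it was 4.76 for Cd74, 5.51 for H2-Aa, 4.35 for H2-Ab1, 3.53 for H2-Eb1 and 2.88 for H2-DMa. Against fibroblasts it was 6.45 for Cd74, 5.92 for H2-Aa, 4.52 for H2-Ab1, 4.70 for H2-DMa and 3.80 for H2-DMb1. Against pericytes it was 1.81 for Cd74, 2.04 for H2-Aa, 2.23 for H2-Ab1, 1.93 for H2-DMa and 1.99 for H2-DMb1. These contrasts share the endothelial sums, so they are not independent of each other.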

How the results depend on the processing

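Counts here are members of the set called, and the cause of each shift was not tested beyond what the setting itself changes. In aged against young endothelium 6 were called, 5 to 7 with a mouse left out and 3 without both Aged A and Aged D, a setting chosen after seeing the data. In myoepithelial cells 4 were called, 2 without a filter on low counts, 1 at equal totals and 2 to 3 with a mouse left out. In HS cells 4 became 1 at equal totals and 3 to 6 with a mouse left out. In AV cells 3 became 6 with DESeq2, 6 without the filter, 5 with the replicate block and 2 to 5 with a mouse left out. At equal totals AV cells also had 3, but H2-DMb2 and H2-Eb1 no longer passed the filter and Cd74 and H2-Ab1 were gained. In fibroblasts 2 became 4 without the filter, 1 with the replicate block, 0 at equal totals, where no member passed the filter, and 0 to 1 with a mouse left out. Pericytes went from 0 to 3 without the filter and 0 to 1 with a mouse left out. Dendritic cells went from 1 to 2 without the filter and 1 to 2 with a mouse left out, and T and B cells from 0 to 1 without the filter.

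For the interactions, endothelium against HS cells went from 5 to 3 with DESeq2 and 3 to 5 with a mouse left out, against fibroblasts from 5 to 3 to 6 with a mouse left out, and against pericytes from 5 to 0 with DESeq2 and 0 to 5 with a mouse left out. Dendritic cells against Mb macrophages went from 2 to 5 with no fold minimum, 1 with no mouse block and 1 to 2 with a mouse left out. The Cd74 difference by capillary RNA, -0.02, was -0.45 after thinning, ranged from -0.18 to 0.10 with a mouse left out, and turned positive without Aged A (0.02) and without Aged C (0.10).

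The letters pair no animals. With the replicate block, endothelium gave 7 calls, the 6 higher and H2-Eb1 lower, and the block moved the count by over 1.5 times in AV cells and fibroblasts only. Over all genes, calls went in myoepithelial cells from 1860 to 690 at equal totals, in HS cells from 529 to 165 with the block, 246 at equal totals and 1215 unfiltered, in AV cells from 678 to 424 with the block and 176 at equal totals, in fibroblasts from 175 to 30, 42 and 582, and in pericytes from 307 to 184, 170 and 560 (block, equal totals, unfiltered). Mb macrophage calls went from 10 to 45 with DESeq2, 35 with the block and 71 unfiltered, and dendritic calls from 51 to 113, 32 and 141, and 26 at 10 cells. With DESeq2 the interactions with myoepithelial and HS cells fell from 1306 to 775 and 1055 to 586. Mb against Ma calls went from 451 to 720 unfiltered, and dendritic against Mb calls from 202 to 611 unfiltered and 437 at 10 cells. Equal totals moved the share of calls that were higher from 47.1% to 63.6% in AV cells and from 65.1% to 38.1% in fibroblasts. A minimum of 10 cells could not be run for Mb macrophages and T and B cells by age. Of the alternatives for results that answer a comparison, 233 stayed within their limits, 38 moved and 2 reversed. Depth limits Ciita, H2-Ob and H2-Oa in all cells and the few immune cells of aged mice.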

Other observations

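Lymphoid cells, which were too few to carry a result, held uneven class II RNA. In T and B cells Cd74 stood at 517 CPM in Aged A and 1742 in Aged D, and in NK cells at 5288 in Young A. No member passed the count filter in T and B cells, and these values have no test.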
